A study of Mus musculus with 4 samples.

Results

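The genes described are 32 genes of cholesterol and fatty acid synthesis and its control, taken as a list of symbols out of 21887 protein-coding genes in the mouse annotation. They fall into 7 genes of the mevalonate steps, 8 genes of the steps between farnesyl diphosphate and cholesterol, 5 genes of the SREBP control system, 9 genes of fatty acid synthesis, elongation and desaturation, and 3 genes of sterol efflux and its receptor. Omni-ATAC-seq, which marks open chromatin through insertion of sequencing adapters by the Tn5 transposase, was run on oligodendrocytes (OL) sorted for the O1 antigen and on oligodendrocyte progenitor cells (OPC). Each cell type is represented by 1 library from the epiblast stem cell line 129O1 and 1 from the line EpiSC5, so n = 2 in each group. The labels give no difference in genotype or drug between the groups. The lines come from mouse strains named as 129SvEv and 129S1/SvImJ, SHH was left out of the cultures, and the OPC medium held bFGF and PDGFA at 20 ng/mL each. The OPC were purified by sorting for CD140a and NG2, following 4 passages, and grown on. The cells were made in culture from 2 lines and no animal was sampled. Whether the libraries are separate differentiations is not stated. A p-value here sets a group difference only against the spread of these libraries. That spread may be technical and includes any difference between the lines. In bulk libraries, fewer open cells and less opening per cell cannot be told apart.

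Oligodendrocytes build the lipid-rich myelin sheath, and much of the cholesterol in myelin is made by the cell itself, since plasma lipoproteins do not cross the blood-brain barrier. The mevalonate pathway turns acetyl-CoA into farnesyl diphosphate, the sterol branch turns that into squalene, lanosterol and cholesterol, and acetyl-CoA carboxylase with fatty acid synthase feeds the elongases and desaturases. SREBP-1 and SREBP-2 are transcription factors held in the membrane of the endoplasmic reticulum by SCAP and the INSIG proteins, and they bind sterol regulatory elements near many of these genes once they have been cleaved. Liver X receptors sense oxysterols and raise efflux transporters. Accessibility of a gene is not its expression, and no RNA was measured here.

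The 300 bases around a transcription start (250 before it and 50 after it) were taken from RefSeq on GRCm38.p6 for 25 of the 32 genes, which have 33 such windows, and were searched on both strands. The letters TCACNCCAC, used here for the sterol regulatory element, matched in 1 of the 33 windows. It is that of Hmgcs1, which encodes the cytosolic HMG-CoA synthase, with the first base of TCACCCCAC 137 bases before the start. The same letters matched in 1.19% of 21263 windows of all protein-coding genes. Only exact matches were counted, so a window without one was not shown to lack a sterol regulatory element. The E-box CACGTG, another sequence that SREBP-1 can bind, matched in 8 of the 33 windows (24.242%) against 7.84% of all windows. These 8 windows belong to 7 genes, and the 2 overlapping windows of Scap hold the same E-box. The CCAAT box, bound by NF-Y, matched in 19 windows (57.576%) against 38.2% of all windows, and the Sp1 box GGGCGG in 23 (69.697%) against 46.2%. No match of one kind overlapped a match of another in these 33 windows, although windows of neighbouring starts of Dhcr7 and Scap share sequence. A match describes letters and not a bound site. Hmgcs1 is shown as the window that matched TCACNCCAC, and Insig1, an anchor of SCAP, as one with an E-box. Acat2 and Msmo1 were chosen after their values were seen. Their start windows lay in peaks of all 4 libraries, while a site inside each gene differed. Capitals mark TCACNCCAC, CACGTG and CCAAT on either strand (ATTGG is CCAAT on the other strand). The windows are chr13:119690101-119690400 on the plus strand for Hmgcs1, chr5:28071162-28071461 on the plus strand for Insig1, chr17:12960676-12960975 on the minus strand for Acat2 and chr8:64733529-64733828 on the minus strand for Msmo1, each written 5′ to 3′ along its gene.
Hmgcs1: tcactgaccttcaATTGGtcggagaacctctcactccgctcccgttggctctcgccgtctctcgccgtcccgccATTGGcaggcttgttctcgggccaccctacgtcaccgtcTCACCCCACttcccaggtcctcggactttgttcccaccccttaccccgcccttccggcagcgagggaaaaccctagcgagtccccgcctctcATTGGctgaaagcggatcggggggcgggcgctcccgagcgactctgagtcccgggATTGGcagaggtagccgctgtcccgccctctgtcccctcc
Insig1: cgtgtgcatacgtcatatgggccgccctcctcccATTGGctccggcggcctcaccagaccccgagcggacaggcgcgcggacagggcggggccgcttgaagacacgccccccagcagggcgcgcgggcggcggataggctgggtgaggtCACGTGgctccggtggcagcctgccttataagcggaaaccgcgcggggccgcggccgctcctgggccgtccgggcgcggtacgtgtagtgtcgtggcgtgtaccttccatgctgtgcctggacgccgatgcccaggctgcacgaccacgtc
Acat2: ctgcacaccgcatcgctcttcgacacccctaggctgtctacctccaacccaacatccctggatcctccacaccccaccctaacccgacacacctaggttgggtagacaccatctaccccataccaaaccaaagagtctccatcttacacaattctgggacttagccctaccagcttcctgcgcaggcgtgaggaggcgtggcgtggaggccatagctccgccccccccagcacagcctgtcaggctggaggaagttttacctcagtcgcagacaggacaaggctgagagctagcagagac
Msmo1: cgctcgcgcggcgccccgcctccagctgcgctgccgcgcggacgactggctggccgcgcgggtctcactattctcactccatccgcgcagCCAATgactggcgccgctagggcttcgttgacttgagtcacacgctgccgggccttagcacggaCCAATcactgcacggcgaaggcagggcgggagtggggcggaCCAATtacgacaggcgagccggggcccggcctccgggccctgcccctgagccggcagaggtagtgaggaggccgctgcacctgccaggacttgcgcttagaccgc

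Most starts of the genes with a start window were open in both cell types. Fdft1, Fdps, Sqle, Scd1, Scd2, Fads1 and Abcg1 had no such window. A peak lay over 28 of the 33 start windows (84.8%) in all 4 libraries, against 53.5% of the windows of all protein-coding genes. The Hmgcs1 window shown above was covered over all 300 bases in every library, and so were the Insig1 and Msmo1 windows. The authors' fold enrichment of the Hmgcs1 start peak was 9.35 and 8.69 in the OL libraries of 129O1 and EpiSC5 and 9.03 and 9.96 in the OPC libraries of the same lines. These values stand above the median fold of their own lists, which lay between 6.68 and 6.86. Of the windows with a peak, 23 of 28 and 22 of 29 in OL, and 23 of 29 and 23 of 29 in OPC, had a fold above their list's median (82.1% and 75.9% in OL, 79.3% and 79.3% in OPC). Start windows of all protein-coding genes did so in 77.6% and 74.7% of cases in OL and 74.3% and 74.5% in OPC, so this share is near that of starts at large. The 4 windows without a peak in any library were 1 of the starts of Pmvk, of Srebf1 and of Insig2, each of which has another start with a peak in all 4 libraries, and the tabled start of Acaca, which lies inside the gene interval.

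The lists held 127196 and 152595 peaks over 35.02 and 41.2 Mb in OL (129O1, then EpiSC5, the order used throughout) and 129534 and 125002 peaks over 38.63 and 44.11 Mb in OPC. The shortest listed peak was 80 and 84 bp in OL and 78 and 100 bp in OPC, and read depth is unknown. Oligodendrocyte markers carried more peak sequence in OL, where 7 of 8 were higher in the test described next, and their sum was 18.9 and 19.4 kb in OL against 7.44 and 9.64 kb in OPC. Mag and Mobp (myelin proteins) and Enpp6 were among them. Of 5 OPC markers 1 passed, Sox6, which was higher in OL, and none passed as lower. Pdgfra had 2837.6 and 2801.0 bp in OL and 2186.2 and 2481.4 bp in OPC (log2 difference 0.26, adjusted p = 0.283). Cspg4 had a log2 difference of 0.088 (adjusted p = 0.751) and Gpr17 one of -0.024 (adjusted p = 0.957). Ptprz1 had 3229.1 and 3515.8 bp in OL, below 3540.1 and 4097.8 bp in OPC (log2 difference -0.17, adjusted p = 0.51). Within 1 kb of its gene ends Pdgfra was lower in OL, with 282.5 and 219.9 bp against 411.5 and 667.6 bp in OPC (log2 difference -0.69, adjusted p = 0.0962). Of the markers of other cells, 4 of 6 astrocyte, 3 of 5 neuron and 4 of 4 tested vascular and mesenchymal genes were lower in OL. For microglia 0 of 2 tested genes passed. Over all 14543 genes tested, 11% passed as higher in OL and 8.63% as lower. The vascular and mesenchymal sum was 2.09 and 1.52 kb in OL and 7.22 and 6.78 kb in OPC, with Cldn5 at 0 in every library, and the astrocyte sum was 7.25 and 7.12 kb in OL and 10.7 and 11.4 kb in OPC. The part of such cells in the values below was not tested.

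For each gene, the base pairs covered by peaks between 2 kb below and 2 kb above its interval were summed, scaled to the mean total of the lists, and compared as log2(bp + 200) with limma across all genes with a mean of 500 bp or more. Of the 32 genes, 4 passed an adjusted p of 0.05, 2 higher in OL (Acaca and Acat2) and 2 lower (Fdft1 and Msmo1). Among 14543 genes tested, 19.6% passed, 11% higher and 8.63% lower, so the share among the listed genes is not above the background. The median log2 difference was 0.047 over the 32 genes and -0.023 over all genes. Both OL libraries lay above both OPC libraries for 11 of the 32 genes, against 27.4% of all genes, and below them for 7, against 28.1%. The summed covered sequence of the 32 genes was 65.5 and 60.8 kb in OL and 58.5 and 58.6 kb in OPC. That difference rests on 1 gene: without Acaca the sums were 56.7 and 51.9 kb in OL and 52.6 and 53.8 kb in OPC, which overlap.

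**Figure D1:**
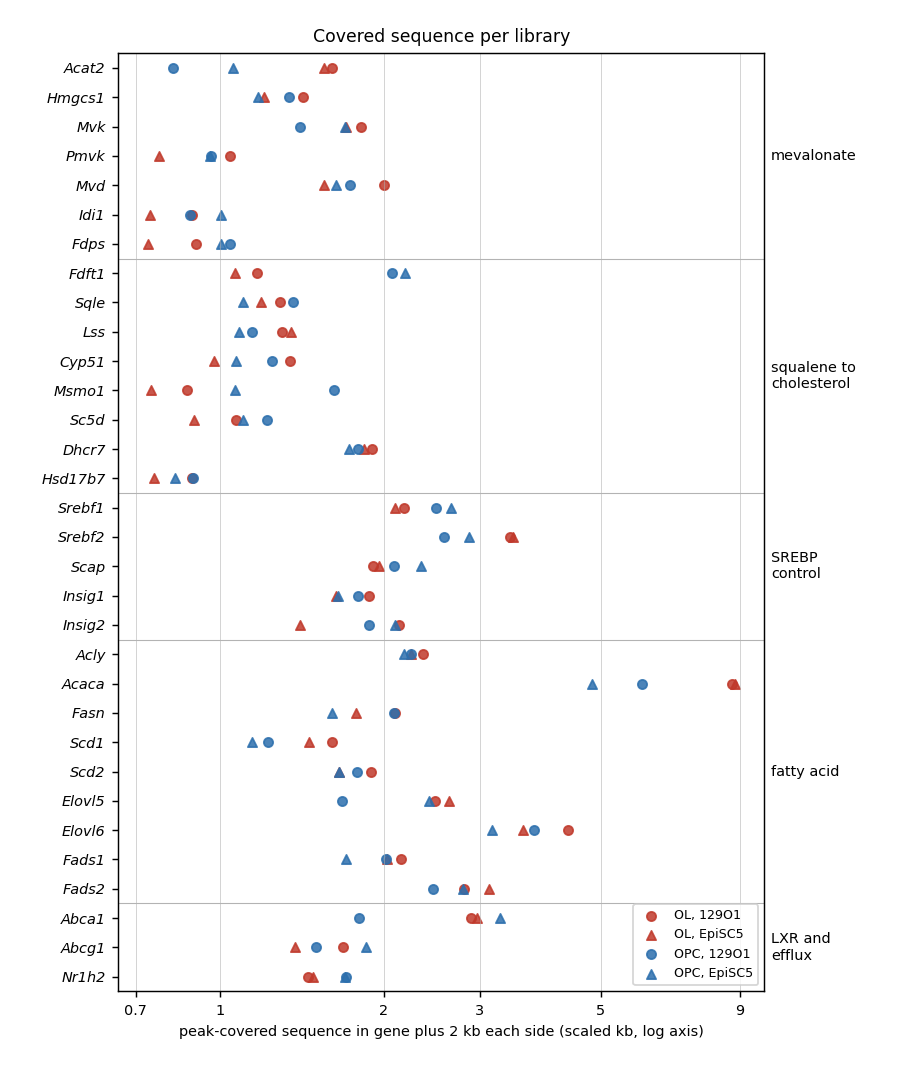
Peak-covered sequence of each of the 32 genes (gene interval plus 2 kb each side, scaled kb on a log axis) in the 2 OL libraries (red) and the 2 OPC libraries (blue), circles for 129O1 and triangles for EpiSC5. The red points stand apart to the right of the blue ones for Acaca and Acat2 and to the left for Fdft1 and Msmo1, while most other genes have red and blue points close together or interleaved.

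In the mevalonate steps Acat2 rose and 6 genes did not pass. Acat2 encodes the cytosolic thiolase that joins acetyl-CoA units in the first step (chromosome 17, 12943042 to 12960725). Its region held 1605.5 and 1550.0 bp of peak sequence in OL and 817.9 and 1054.2 bp in OPC. Both OL values lay above both OPC values, at 1577.7 ± 39.2 bp in OL and 936.0 ± 167.1 bp in OPC (SD, n = 2 each). The log2 difference was 0.65 (SE 0.17, adjusted p = 0.0108), and the call was lost without the 129O1 OPC library (log2 difference 0.50, adjusted p = 0.144) and without scaling of the lists (adjusted p = 0.122). The difference lay inside the gene. Beyond 1 kb from the gene ends Acat2 had 592.3 and 830.5 bp in OL and 0 and 104.5 bp in OPC (log2 difference 1.87, SE 0.31, adjusted p = 0.0146, or 0.033 without the filter), whereas its ends had 1013.2 and 719.5 bp in OL and 817.9 and 949.7 bp in OPC. Acat2 met the filter of that test (a mean of 200 bp) only through its OL libraries. Acat2 has the neighbour Acat3, a paralog, whose region held none of the Acat2 peak sequence, and how reads that match both were placed is not given in the sources used here.

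Hmgcs1 had 1417.1 and 1202.8 bp in OL and 1335.4 and 1174.0 bp in OPC, so its libraries interleaved (log2 difference 0.052, adjusted p = 0.889). Idi1, the isomerase of isopentenyl diphosphate, carried 1 merged region, the start peak, in all 4 libraries and had no peak sequence elsewhere in its region. Of the 7 genes, Fdps, which makes farnesyl diphosphate, had the lowest log2 difference, at -0.27 (adjusted p = 0.379). The kinases Mvk and Pmvk and the decarboxylase Mvd lay between -0.080 and 0.17.

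In the sterol branch 2 of 8 genes passed as lower and none as higher, against 8.63% lower and 11% higher among all genes tested. Whether the branch differs from all genes was not tested. Fdft1 encodes squalene synthase, the first enzyme committed to sterols (chromosome 14, 63145150 to 63181687). It had 1167.5 and 1062.9 bp in OL and 2065.8 and 2183.2 bp in OPC. Both OL values were well below both OPC values, at 1115.2 ± 73.9 bp in OL and 2124.5 ± 83.0 bp in OPC (SD, n = 2 each). The log2 difference was -0.82 (SE 0.16, adjusted p = 0.00124), and all 13 alternative settings kept the call, with adjusted p between 0.00153 and 0.0452. Fdft1 was also lower by number of peaks, with 3 and 3 in OL and 8 and 7 in OPC (adjusted p = 0.0316). None of its peak sequence lay within 1 kb of either annotated gene end in any library. A region of 1115 bp at 63177549 to 63178663 held a peak in all 4 libraries, and regions at 63148594 to 63148915 and 63158152 to 63158461 held a peak in both OPC libraries and in no OL library.

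Msmo1 encodes the methylsterol oxidase that starts removal of the C-4 methyl groups from sterols (chromosome 8, 64718123 to 64733578). It had 868.0 and 746.6 bp in OL and 1619.3 and 1065.9 bp in OPC. The groups did not overlap, although the OPC libraries differed more from each other than the OL libraries did (log2 difference -0.59, SE 0.20, adjusted p = 0.0383). The call held in 5 of 12 alternatives. It was lost without the 129O1 OPC library (log2 difference -0.33, adjusted p = 0.558), without the EpiSC5 OL library (-0.51, 0.129) and with the best 50% of peaks (-0.44, 0.284). It was also lost without scaling (adjusted p = 0.0651), with median-of-ratios scaling (0.0781), without the filter (0.12) and with sequence of other genes left out (0.0623). A single site made the difference. It lies 7174 bp downstream of the start, at 64726028 to 64726781, with 754 and 295 bp of peak sequence before scaling in OPC (authors' fold 11.07 and 5.44) and no listed peak in OL. The start window shown above was covered in full in all 4 libraries, and at the gene ends Msmo1 had 868.0 and 746.6 bp in OL and 843.6 and 800.1 bp in OPC.

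The other 6 genes of the sterol branch did not pass, with log2 differences between -0.21 (Sc5d, the C-5 desaturase) and 0.22 (Lss, lanosterol synthase). Sqle, the squalene epoxidase, had 1286.6 and 1190.2 bp in OL and 1359.0 and 1102.8 bp in OPC. Cyp51, the lanosterol demethylase, had 1345.6 and 973.2 bp in OL and 1247.9 and 1068.6 bp in OPC. For both genes the OL values enclosed or lay within the OPC range (adjusted p = 0.979 for Sqle and 0.984 for Cyp51). Without Fdft1 and Msmo1 the sum of the branch was 7.78 and 7.0 kb in OL and 7.65 and 6.91 kb in OPC, against 9.82 and 8.81 kb in OL and 11.3 and 10.2 kb in OPC with them.

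None of the 5 control genes passed. Srebf2, which encodes the SREBP with the stronger bearing on cholesterol genes, had 3403.8 and 3454.0 bp in OL and 2573.0 and 2862.5 bp in OPC. Both OL values lay above both OPC values (log2 difference 0.32, adjusted p = 0.157), and the gene passed only where the 2 kb flanks were left out (log2 difference 0.53, adjusted p = 0.0326). Its region held 4 sites with a peak in both OL libraries and no OPC library and 2 with the converse, 1 of these in the flank that Srebf2 shares with Shisa8. Srebf1, with the stronger bearing on fatty acid genes, had 2175.0 and 2096.9 bp in OL and 2492.8 and 2659.8 bp in OPC. Here both OL values lay below both OPC values (log2 difference -0.25, adjusted p = 0.298), and 5 of its 9 merged regions had a peak in all 4 libraries and none was specific to 1 cell type. Scap, the escort of the SREBPs, had 1908.4 and 1958.0 bp in OL and 2090.5 and 2343.5 bp in OPC (adjusted p = 0.499). Insig1 had 1877.8 and 1633.9 bp in OL and 1789.1 and 1648.0 bp in OPC, all of it in 1 merged region over its start apart from 151 bp (before scaling) in the EpiSC5 OL library (adjusted p = 0.948). Insig2 had a log2 difference of -0.18 (adjusted p = 0.579).

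All 9 fatty acid genes had a positive log2 difference, from 0.041 to 0.69 with a median of 0.16, and 1 of them, Acaca, passed. Among 14543 genes tested, 6827 had a positive log2 difference and 11% passed as higher. Whether the 9 genes differ from all genes was not tested. The sign turned without scaling for Acly, Fasn and Scd2, and under other settings also for Elovl5, Elovl6 and Fads1. Acaca encodes acetyl-CoA carboxylase 1, which makes malonyl-CoA (chromosome 11, 84129635 to 84401651). It had 8713.7 and 8831.4 bp in OL and 5950.6 and 4815.9 bp in OPC. The OL libraries agreed closely and both stood above the OPC libraries, at 8772.5 ± 83.2 bp in OL and 5383.2 ± 802.3 bp in OPC (SD, n = 2 each). The log2 difference was 0.69 (SE 0.14, adjusted p = 0.00145), and the call held in 12 of 13 alternatives, the exception being no scaling (adjusted p = 0.0975). Acaca also had more peaks, 32 and 39 in OL and 19 and 13 in OPC (adjusted p = 0.0311). Of its covered sequence 22.4% lay in sequence shared with the regions of Tada2a and Gm11437, and the call held with that sequence left out. Larger shares lay in regions of other genes for Mvk (56.3%), Nr1h2 (46.3%), Dhcr7 (41.3%), Fasn (36.8%) and Srebf1 (27.3%).

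Acly, the ATP citrate lyase that supplies cytosolic acetyl-CoA, had 2357.7 and 2243.5 bp in OL and 2237.6 and 2172.3 bp in OPC (adjusted p = 0.869). Fasn, the fatty acid synthase, had 2095.6 and 1775.7 bp in OL and 2084.3 and 1607.4 bp in OPC (adjusted p = 0.853). The OL and OPC values of Fasn interleaved, and those of Acly were nearly alike. The stearoyl-CoA desaturase Scd1 had 1604.3 and 1455.5 bp in OL and 1224.3 and 1145.2 bp in OPC, groups that did not overlap (log2 difference 0.32, adjusted p = 0.19). Leaving out the flanks brought Scd1 past the threshold (log2 difference 0.67, adjusted p = 0.0373). Its region held a peak over the upper gene end in all 4 libraries and 2 further sites with a peak in both OL libraries and in no OPC library. Scd2, the desaturase that is abundant in brain, had 1894.8 and 1656.1 bp in OL and 1782.9 and 1651.6 bp in OPC (adjusted p = 0.91), with no site specific to 1 cell type. The elongases Elovl5 and Elovl6 and the desaturases Fads1 and Fads2 had log2 differences between 0.15 and 0.31 and did not pass, except that Elovl5 passed without the EpiSC5 OPC library (log2 difference 0.55, adjusted p = 0.0481) and with the 50% of peaks of best q value (0.76, adjusted p = 0.0152). The sum over the 9 genes was 28.5 and 27.3 kb in OL and 23.2 and 21.5 kb in OPC, and over the 8 genes other than Acaca 19.7 and 18.5 kb in OL and 17.3 and 16.7 kb in OPC.

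Of the 3 genes of efflux none passed by covered sequence of the whole region. Abca1, the cholesterol exporter, had 2893.2 and 2966.0 bp in OL and 1801.4 and 3268.0 bp in OPC. The OPC libraries stood on either side of the OL libraries, so no difference could be seen beyond their spread (log2 difference 0.25, adjusted p = 0.45). Without the EpiSC5 OPC library Abca1 passed (log2 difference 0.64, adjusted p = 0.0122), and without the 129O1 OPC library its sign turned (-0.15, adjusted p = 0.755). Nr1h2, which encodes the liver X receptor beta, had 40.8 and 155.3 bp in OL and 471.2 and 455.9 bp in OPC beyond 1 kb from its ends (log2 difference -1.18, SE 0.28, adjusted p = 0.0363). Both OL values lay below both OPC values there, but the 2 sites that made the difference, at chromosome 7, 44547800 to 44548096 and 44548143 to 44548291, lie in the region of the neighbour Pold1, and over the whole region Nr1h2 had a log2 difference of -0.19 (adjusted p = 0.472). Nr1h2 met the filter of the test beyond 1 kb (a mean of 200 bp) only through its OPC libraries, and did not pass without that filter.

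No listed gene passed at gene ends and 5 passed elsewhere in their regions, though the difference between these zones was not tested. Within 1 kb of either end, 29 of the 32 genes could be tested (a mean of 200 bp or more), and 0 passed in limma, against 8.63% of 12938 genes tested (1.74% higher and 6.89% lower). At an unadjusted p under 0.05 there were also 0, against 17.3% of all genes. The background depends on the scaling: with median-of-ratios scaling 2.04% of 12933 genes passed, 50.4% of them higher against 20.1% with list totals, and 0 listed genes passed, with 6 at an unadjusted p under 0.05. Abcg1, another exporter, had the lowest log2 difference, at -0.32, and passed only with the 50% of peaks of best q value, and Scd1 had the highest, at 0.17. The median was -0.046 over the listed genes and -0.078 over all genes. Pmvk, Fdft1 and Insig2 had no peak at either annotated end in any library and were not tested there. Peaks over tabled starts of Pmvk, Insig2, Srebf1 and Dhcr7 lay beyond 1 kb from the ends and were counted in the rest. The split is thus not one of starts against gene bodies. The gene-end sum was 33.3 and 28.9 kb in OL and 32.7 and 30.9 kb in OPC, which overlap.

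Beyond 1 kb from the ends, 5 of 23 genes tested passed, against 22.2% of 11432 genes (15.4% higher and 6.77% lower), a share near the background. Acat2 and Acaca rose, and Fdft1, Msmo1 and Nr1h2 fell. Acaca had 7615.4 and 7791.6 bp in OL and 4775.7 and 3841.9 bp in OPC (log2 difference 0.82, adjusted p = 0.0165). Msmo1 was listed at 0 in both OL libraries and had 775.7 and 265.8 bp in OPC (adjusted p = 0.0318). A gene enters this test where its mean over the 4 libraries reaches 200 bp, and 4 of the 23 did so only through the group in which they were high. Among them are Acat2 (OL), Msmo1 (OPC) and Nr1h2 (OPC), 3 of the 5 called, so the count of calls supports nothing about the list. Without the filter Msmo1 and Nr1h2 did not pass (adjusted p = 0.0582 and 0.0543). Without the 129O1 or the EpiSC5 OL library 0 of all genes tested passed in limma, so no call could be kept there, and 4 and 5 listed genes had an unadjusted p under 0.05. Over the 4 leave-outs the log2 difference stayed between 1.57 and 2.13 for Acat2, between 0.67 and 0.97 for Acaca and between -0.88 and -0.76 for Fdft1. Without the 129O1 OPC library 3 of 22 listed genes passed (13.6%, against 16.3% of all genes), and without the EpiSC5 OPC library 8 of 23 (34.8%, against 21.6%). The sum over the 32 genes was 32.1 and 31.9 kb in OL and 25.9 and 27.6 kb in OPC. Acaca contributed 7615.4 and 7791.6 bp of it in OL and 4775.7 and 3841.9 bp in OPC, so the sums do not show a rise shared by the list. Gene ends held 50.9% and 47.5% of the covered sequence of the listed genes in OL and 55.8% and 52.8% in OPC, and over all genes 39.0% and 34.8% in OL and 42.2% and 40.4% in OPC.

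**Figure D2:**
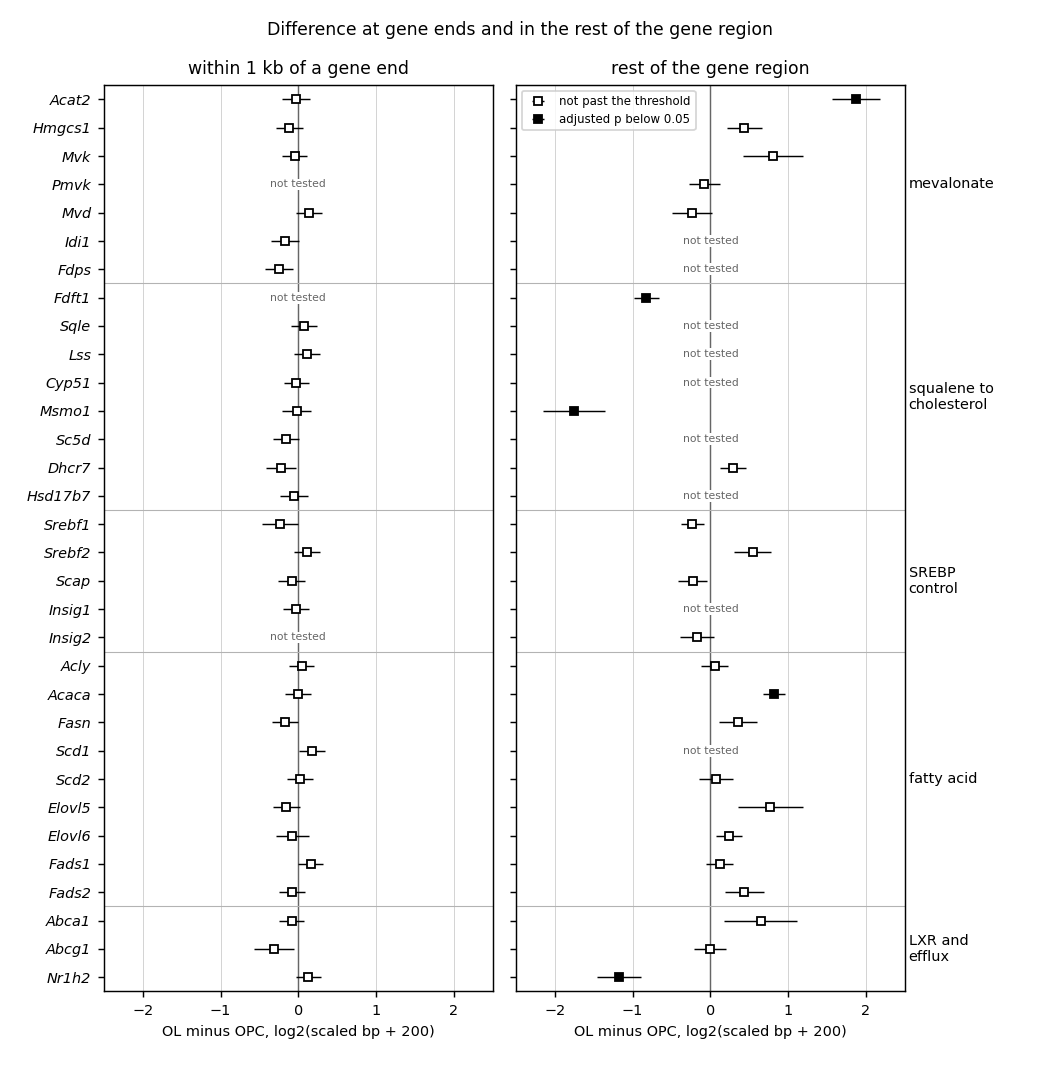
Log2 difference, OL minus OPC on log2(scaled bp + 200), for each gene within 1 kb of a gene end (left) and in the rest of its region (right), with bars for 1 SE and filled squares for an adjusted p below 0.05. At gene ends the squares run from -0.32 to 0.17 and none is filled, and in the rest 5 are filled, from -1.75 (Msmo1) to 1.87 (Acat2).

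Peaks of the 4 lists were merged where they overlapped or touched, which gave 245 regions over the 32 genes. Of these, 41 had a peak in both OL libraries and in no OPC library (OL-only, 16.73%, against 16.8% of 141580 regions over all protein-coding genes). The converse held for 18 (OPC-only, 7.35%, against 8.84%), and 81 had a peak in all 4 libraries (33.06%, against 26.78%). Of the OL-only regions 38 lay beyond 1 kb from the gene ends and 3 within it, and of the OPC-only regions 14 and 4, and of the shared regions 41 and 40. Within 1 kb of an end thus lay 7.32% of the OL-only, 22.2% of the OPC-only and 49.4% of the shared regions. Over all protein-coding genes, with a region counted for each gene it lies over, these shares were 5.72%, 12.9% and 38.4%, in the same order of classes. The difference from the listed genes was not tested. Acaca alone held 16 OL-only and 2 OPC-only regions among its 48, of which 7 were shared. Ranked by covered sequence, the first OL-only region lay in Acat2 (chr17:12950348-12950941), 10081 bp downstream of its start, with 522 and 594 bp in OL before scaling and folds of 8.01 and 9.71. The next were in Acaca (chr11:84282957-84283521), Scap (chr9:110351793-110352206), Fads2 (chr19:10080366-10080691) and Acaca (chr11:84229380-84229670). That last site had the highest fold of these, 13.25 and 14.36. The first OPC-only region was the Msmo1 site, followed by regions in Acaca (chr11:84146205-84146729), Fads2 (chr19:10071178-10071497), Srebf2 (chr15:82206355-82206709) and Fdps (chr3:89100936-89101277). A list without a peak at a site holds nothing there that passed the caller's threshold, which does not show that the site was closed.

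**Figure D3:**
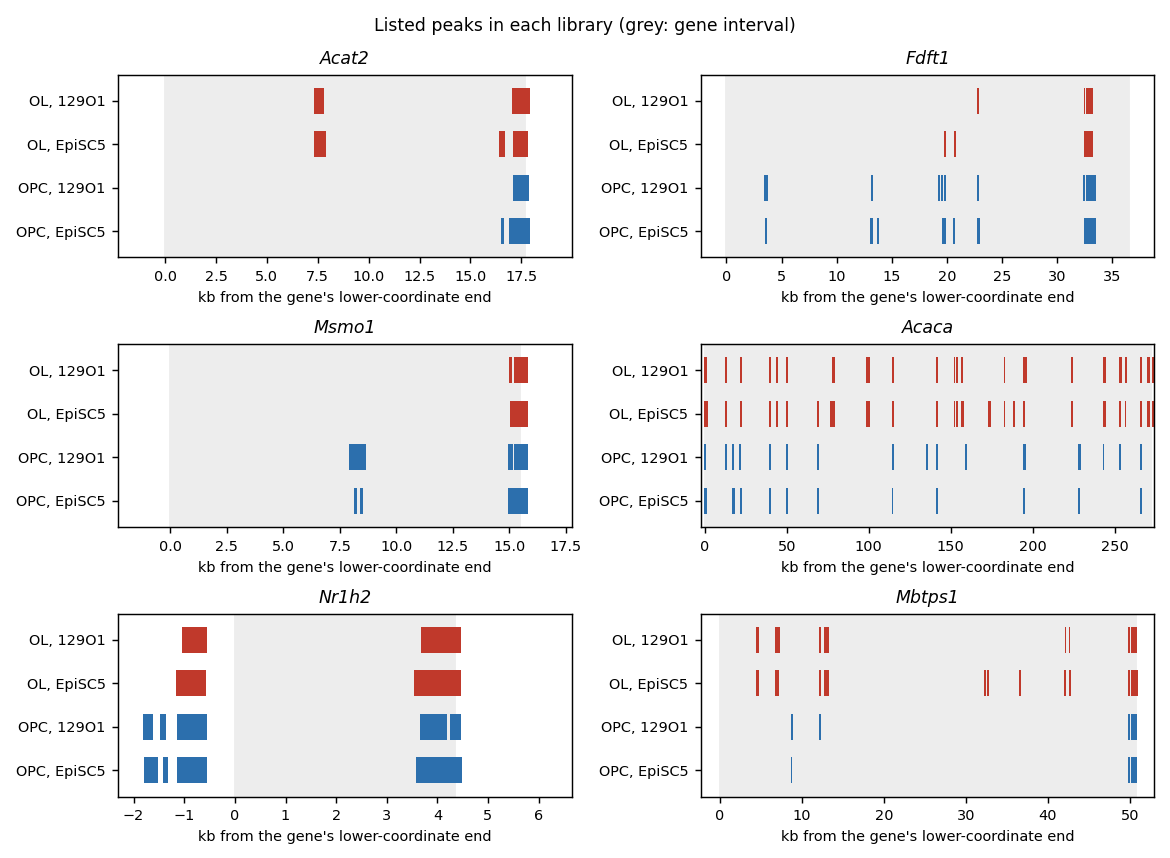
Position of every listed peak in the 2 OL libraries (red, upper rows) and the 2 OPC libraries (blue, lower rows) over Acat2, Fdft1, Msmo1, Acaca, Nr1h2 and Mbtps1, in kb from the gene's lower-coordinate end, with the gene interval in grey. The peaks at the upper end of Acat2 and Msmo1 are in all 4 libraries, the inner peak of Acat2 is in the OL libraries alone and that of Msmo1 in the OPC libraries alone, and Acaca has 32 and 39 peaks in OL against 19 and 13 in OPC.

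By number of peaks, tested where the mean was 2 or more, 2 of 26 genes passed, Acaca higher and Fdft1 lower, against 4.79% of 12465 genes (3.31% higher and 1.48% lower). With cell line as a replicate block 4 of 26 listed genes (15.4%) and 2037 of all genes (16.3%) passed. The genes added were Scd1, with 4 and 3 peaks in OL and 1 and 1 in OPC (adjusted p = 0.0225 with the block, 0.0649 without), and Nr1h2, with 2 and 2 peaks in OL and 5 and 4 in OPC (adjusted p = 0.0146 with the block, 0.0559 without). Scd1 met the filter only through its OL libraries and Nr1h2 only through its OPC libraries. Leaving out 1 library left 0 to 124 calls among all genes, and no filter left 0, so a lost call says little there. Scd1 passed when the EpiSC5 OL library was left out (adjusted p = 0.0104). Over the leave-outs the log2 difference in peak number stayed between 0.77 and 1.26 for Acaca and between -1.42 and -1.19 for Fdft1.

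The 4 genes called by covered sequence moved the same way in both lines. Acat2 had a log2 difference of 0.83 in 129O1 and 0.48 in EpiSC5, and Acaca one of 0.54 and 0.85. Fdft1 had -0.73 and -0.92, and Msmo1 -0.77 and -0.42, in the same order. For 9 of the 32 genes the lines had opposite signs, against 25.5% of all genes. With 1 library per cell type and line the difference between lines could not be tested.

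**Figure D4:**
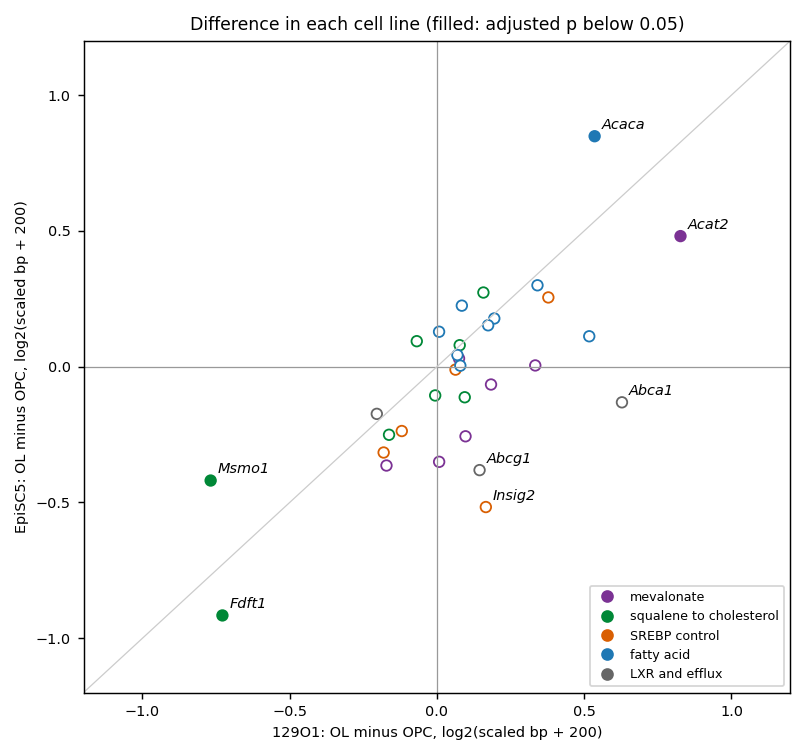
Log2 difference, OL minus OPC on log2(scaled bp + 200), of each gene in 129O1 (horizontal) and EpiSC5 (vertical), coloured by role and filled where the adjusted p over both lines is below 0.05. Acaca and Acat2 lie in the upper right and Fdft1 and Msmo1 in the lower left, and Abca1, Abcg1 and Insig2 lie below the horizontal line with a positive value in 129O1 alone.

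A further list of 25 genes of SREBP processing, acyl-CoA supply, elongation and sterol handling was tested in the same fit. By covered sequence 3 rose (Mbtps1, Hacd2 and Hsd17b12) and 1 fell (Lpcat3), which is 4 of 25 against 19.6% of all genes and so not above the background, with a median log2 difference of 0.029. Mbtps1 encodes site-1 protease, which makes the first of the cuts that free the SREBPs. It had 2927.3 and 2966.9 bp in OL and 1101.8 and 1029.0 bp in OPC, with no overlap and a fold difference of 2.49 on the log2(bp + 200) scale (log2 difference 1.32, SE 0.16, adjusted p = 1.74e-05). The call held in all 13 alternatives. The difference lay inside the gene, with 1878.9 and 2060.3 bp in OL and 199.6 and 191.9 bp in OPC beyond 1 kb from its ends (adjusted p = 0.00894, or 0.0259 without the filter, which Mbtps1 met only through its OL libraries), against 1048.4 and 906.7 bp in OL and 902.3 and 837.0 bp in OPC at its ends (adjusted p = 0.916). Mbtps1 also had more peaks, 9 and 11 in OL and 4 and 3 in OPC (adjusted p = 0.0311). Mbtps2, the gene of site-2 protease, which makes the next cut, was lower at its ends, with 847.5 and 708.0 bp in OL and 1149.2 and 1207.4 bp in OPC (log2 difference -0.50, adjusted p = 0.0491), a call that held in 4 of 11 alternatives. The log2 difference lay between -0.84 and -0.18 over them (adjusted p up to 0.879), and losses included the fits that left out the EpiSC5 OL library or either OPC library.

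Hacd2 and Hsd17b12 encode enzymes of the elongation cycle that work beside the elongases. Hacd2 had 4513.4 and 4296.1 bp in OL and 3240.7 and 2854.4 bp in OPC (log2 difference 0.51, adjusted p = 0.0199), and Hsd17b12 had 4640.5 and 5622.3 bp in OL and 3924.9 and 3472.5 bp in OPC (log2 difference 0.45, adjusted p = 0.0401, or 0.0791 with cell line as a replicate block, with the call held in 4 of 13 alternatives and adjusted p up to 0.346). By number of peaks Hacd2 and Tecr passed with that block (adjusted p = 0.0274 for Hacd2 and 0.00548 for Tecr) and not without it (0.0842 for Hacd2 and 0.0535 for Tecr). Lpcat3, which loads polyunsaturated acyl chains onto phospholipids and is a target of liver X receptors, had 1833.5 and 1838.4 bp in OL and 2564.8 and 3090.5 bp in OPC (log2 difference -0.57, adjusted p = 0.0157). The groups did not overlap for these 3 genes. Each call was lost when some single library was left out, Hacd2 without any but the 129O1 OPC library, and Hsd17b12 without the EpiSC5 library of either cell type. The Lpcat3 call was lost without either OL library or the EpiSC5 OPC library, with adjusted p between 0.0591 and 0.157. Over all 13 alternatives the Hacd2 call held in 8 and the Lpcat3 call in 7.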

How the data were processed

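The data are 4 Omni-ATAC-seq peak lists, 1 per library. Per the labels' protocols, nuclei of 50000 cells were treated with Tn5 for 30 min and single-end reads of 50 bp were sequenced, at a stated 100 M per sample. The tools named are Bowtie2 2.3.2, Trim Galore 0.3.1, MACS2 and Picard, with the build mm10, per the submitters' processing notes. Settings of the caller, removal of duplicates and any shift of reads for the Tn5 cut were not given in the sources used. The authors deposited for each peak a start, an end, a score, a linear fold enrichment over background, −log10 p and −log10 q values and a summit offset, as their peak caller gave them, with peaks called per library and not on pooled libraries. Fold, score and −log10 values are the authors' own and were used only to describe or filter peaks within a list. The lists give no read counts, which leaves depth unknown, and no counting interval is given. The lowest −log10 q was between 3.00263 and 3.03442, so the lists share about the same threshold.

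Genes came from RefSeq on GRCm38.p6 (the assembly named mm10), 1 interval per gene. All 32 symbols matched. Covered base pairs and peak numbers per gene region (interval plus 2 kb each side), within 1 kb of either end and in the rest were scaled to the mean list total. They were compared as log2(bp + 200) or log2(peaks + 0.5) with the moderated test of limma 3.58.1 (R 4.3.3), two-sided and with a trend of variance on mean. P-values were adjusted by Benjamini-Hochberg over all genes tested with a threshold of 0.05, after filters on the mean of 500 bp, 200 bp, 200 bp and 2 peaks. On this scale the change of a gene with little covered sequence is understated. An exact permutation test of 2 against 2 libraries cannot go below p = 0.333. The fits were tested on simulated data with independent noise, which leaves out the correlation between libraries of a line. Of 100 genes changed by a log2 of 1, 99 were recovered by region, 96 at ends, 91 in the rest and 66 by peak number.

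The libraries pair by cell line, as the labels give it. Deviations of the same line correlated at 0.287, 0.355, 0.178 and 0.125 in the 4 measures, and the fit with line as a block is an alternative. Others were no scaling, median-of-ratios scaling, another pseudocount (50 bp or 1 peak), no filter, the best 50% of peaks, 200 bp around summits, no flank, sequence of other genes left out, an overlap of 100 bp for merged regions, and each library left out. The genes named are all 32, with values per library for those past the threshold and for 14 set by name. The members and lists were chosen with earlier results of these data known. Sequence under the peaks was not used here.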

Additional observations from a re-analysis of the deposited data

Results flagged for a closer look

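Log2 differences (OL minus OPC, covered sequence of the gene region) had opposite signs in the lines for 9 of the 32 genes. The difference between lines was not tested, since each line has 1 library per cell type, and opposite signs also occur in 25.5% of all genes. The 129O1 value minus the EpiSC5 value was 0.76 for Abca1 (0.63 in 129O1 and -0.13 in EpiSC5), 0.68 for Insig2 (0.17 and -0.52) and 0.53 for Abcg1 (0.14 and -0.38). It was 0.36 for Idi1, 0.35 for Pmvk, 0.25 for Mvd, 0.21 for Cyp51, 0.074 for Insig1 and -0.16 for Sqle.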

How the results depend on the processing

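Acaca, Acat2, Fdft1 and Msmo1 kept their direction under every alternative run, and their calls by covered sequence held in 12 of 13, 10 of 12, 13 of 13 and 5 of 12 alternatives. Without scaling the median of all genes moved to -0.13. By region 583 of all genes (4.0%) and 1 of 32 listed genes (3.12%) passed. In the rest 936 of all genes (8.17%) and 1 of 23 listed genes (4.35%) passed. By peak number 6.31% of all genes and 1 of 27 listed genes (3.7%) passed. Median-of-ratios scaling gave 264 genes at ends (50.4% higher, against 20.1% with list totals). By peak number it gave 1162 of all genes (9.39%) and 4 of 26 listed genes (15.4%). No filter gave 592 at ends, and 0 genes and 0 listed genes by peak number. The best 50% of peaks gave 1637, 647 and 1452 genes (region, ends, rest), 1 listed gene at ends, 3 in the rest, and 18 OL-only and 3 OPC-only regions. Summits gave 742, 67 and 385 genes (7.2%, 0.526% and 3.39% of all genes tested). Of the listed genes 2 of 22 passed by region (9.09%) and 1 of 21 in the rest (4.76%). The line block gave 2037 of all genes (16.3%) and 4 of 26 listed genes (15.4%) by peak number. Beside the calls given with Scd1, Nr1h2, Hsd17b12, Hacd2 and Tecr the block changed no other.

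Leaving out 1 library gave 2 to 6 listed genes by region, 403 to 1682 genes at ends, 0 to 2436 genes and 0 to 8 listed genes in the rest, 0 to 124 genes and 0 to 1 listed genes by peak number, and 47 to 65 OL-only and 21 to 39 OPC-only regions. By construction a single remaining library then suffices for a region.

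Signs turned for genes that had not passed. Without scaling the log2 difference was -0.051 for Hmgcs1, -0.049 for Mvd, -0.054 for Acly, -0.090 for Sqle, -0.030 for Dhcr7, -0.026 for Cspg4, -0.082 for Insig1, -0.04 for Fasn and -0.066 for Scd2. With median-of-ratios scaling it was 0.0088 for Cyp51. With the best 50% it was -0.041 for Hmgcs1, 0.028 for Pmvk, -0.087 for Mvd and Elovl6, 0.011 for Fdps, 0.015 for Sc5d, -0.27 for Insig1, -0.15 for Fasn, -0.11 for Scd2, -0.25 for Fads1 and 0.11 for Nr1h2. With summits it was -0.39 for Hmgcs1, 0.10 for Scap, 0.30 for Insig2, -0.017 for Acly, -0.019 for Abca1, -0.35 for Scd2, -0.055 for Elovl5 and -0.039 for Cspg4. With other genes' sequence out it was -0.037 for Mvd and 0.13 for Nr1h2, and without flanks -0.013 for Sqle, -0.0014 for Fads1 and 0.15 for Nr1h2. Leave-outs spanned -0.051 to 0.15 for Hmgcs1, -0.11 to 0.22 for Mvd, -0.12 to 0.14 for Sqle, -0.064 to 0.12 for Insig1, -0.10 to 0.24 for Fasn, -0.046 to 0.13 for Scd2, -0.26 to 0.10 for Pmvk, -0.21 to 0.19 for Cyp51, -0.15 to 0.039 for Hsd17b7, -0.45 to 0.094 for Insig2, -0.25 to 0.017 for Abcg1 and -0.15 to 0.64 for Abca1. The cause of these changes was not tested. Only 2 libraries a group and unknown depth limit the precision of every value.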
